A study of Danio rerio with 3 samples.

Results

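Heat shock proteins, chaperonins and the proteins that work with them were examined in the cranial cartilage of zebrafish larvae. Their genes were selected by symbol alone, and 61 of the 14417 genes in the count table were members. In all, 63 names met the symbol rule, and hsp90b1 and dnajb11, which encode chaperones of the endoplasmic reticulum (ER), were left out by it. The families were HSP90 with 3 genes, HSP70 and HSP110 with 11, the small heat shock proteins with 4, mitochondrial HSP60 and HSP10 with 2, the cytosolic chaperonin CCT with 8, the J-domain proteins DNAJA and DNAJB with 16, the BAG proteins with 7, the heat shock factors with 2, and stip1, the ahsa1 genes and cdc37l1 with 4. A further 4 names met the rule without belonging to these families (HSPB11, hspbp1, tcp11l1 and tcp11l2). Not every member is cytosolic, since the products of 5 are known to act in mitochondria and those of 6 in or at the ER. The rule also covered symbols that begin with hsp70, but the count table held none, so the inducible genes hsp70 and hsp70l could not be analysed under these names.

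All 3 libraries came from cartilage of the occipital cranial base that was cut by laser from sections of wild-type larvae at 6 days post-fertilization (dpf), with the perichondrium avoided. The larvae were raised at 28.5°C, and the labels record neither a treatment nor a genetic change for them. The libraries are called 1, 3 and 6 after their sample titles. There was no second condition, so no difference between groups was tested, and values are given for each library or as mean ± SD (n = 3 libraries). The paper calls the samples independent, but the sources used here do not say how many larvae were pooled in each, so the SD joins differences between larvae, captures and amplifications.

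Chaperones hold unfolded proteins, fold them with energy from ATP and pass them from one system to the next. HSP70 binds short stretches of new or damaged protein, J-domain proteins bring it substrates and start its ATPase, and nucleotide exchange factors such as the BAG and HSP110 proteins release them. HSP90 finishes signalling proteins such as kinases and steroid receptors, HOP (stip1) bridges it to HSP70, and the ring-shaped CCT complex folds actin and tubulin. Heat shock factor 1 raises the transcription of many of these genes when unfolded protein builds up.

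The libraries held 18920027 to 25604897 counts, of which a single row, AC024175.4, took 34.7 to 59.0%. Scaling between libraries used TMM, the trimmed mean of M-values, and a normalized count is a read count after this scaling. A count of 0 allows up to 3 reads, or 2.84 to 3.30 normalized counts depending on the library, and this limit and the intervals below cover counting error only. Read counts were not corrected for transcript length, so they do not rank the expression of different genes. Of 21 chondrocyte genes found, 20 reached a normalized count of 10 in each library, against 67.8% of all genes. The most read were col2a1a with 282200 to 480763 and col11a1a with 250740 to 442683. This minimum was also reached by 13 of 14 nerve genes and 18 of 21 muscle genes, so passing it does not single out cartilage. Libraries also differed in genes of other tissues. Perichondrium and bone genes summed to 206957 normalized counts in library 1 against 8236 and 13573 in libraries 3 and 6, with sp7 at 0 reads in library 1 (the highest were col1a1b and col1a1a). Of the 11 perichondrium and bone genes found, 8 were highest in library 1. The other 3, sp7, runx2b and dlx5a, were highest in library 6. Epidermis genes summed to 36995 in library 1 against 1681 and 2433 in libraries 3 and 6 (krt5 and icn). Muscle genes summed to 5972 to 24100 with a peak in library 6, where 16 of the 21 found were highest. Of the most read, mylpfa was highest there, but pvalb2 was lowest there, with 3130, 1172 and 995 in libraries 1, 3 and 6. Nerve genes summed to 7291 to 18862 with a peak in library 6 (the most read were tubb5 and mbpa), although mbpa had 1660 and 1689 in libraries 1 and 6. Blood genes summed to 5222 to 37463 with the lowest value in library 3 (hbaa1 and ba1). Immune genes summed to 557 to 1040 (coro1a and cd74a).

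The members as a whole had 136398, 147064 and 142008 reads in libraries 1, 3 and 6, which was 1.299, 1.49 and 1.15% of the counts outside AC024175.4 and 0.533, 0.691 and 0.751% of all counts. Library 6 thus had the lowest share by the first measure and the highest by the second. The gene hsp90ab1 alone held 74.0, 77.7 and 70.9% of these reads. Of the 61 genes, 57 had reads in every library, a count for which the share of all genes was not worked out. A normalized count of 10 in every library was reached by 40, or 65.6%, against 67.8% of all genes in the table. The 21 genes below this minimum in at least 1 library included 8 of the 16 J-domain genes and 3 of the 4 small heat shock genes, whereas all 8 CCT genes, both HSP60 and HSP10 genes and both heat shock factors passed it.

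**Figure D1:**
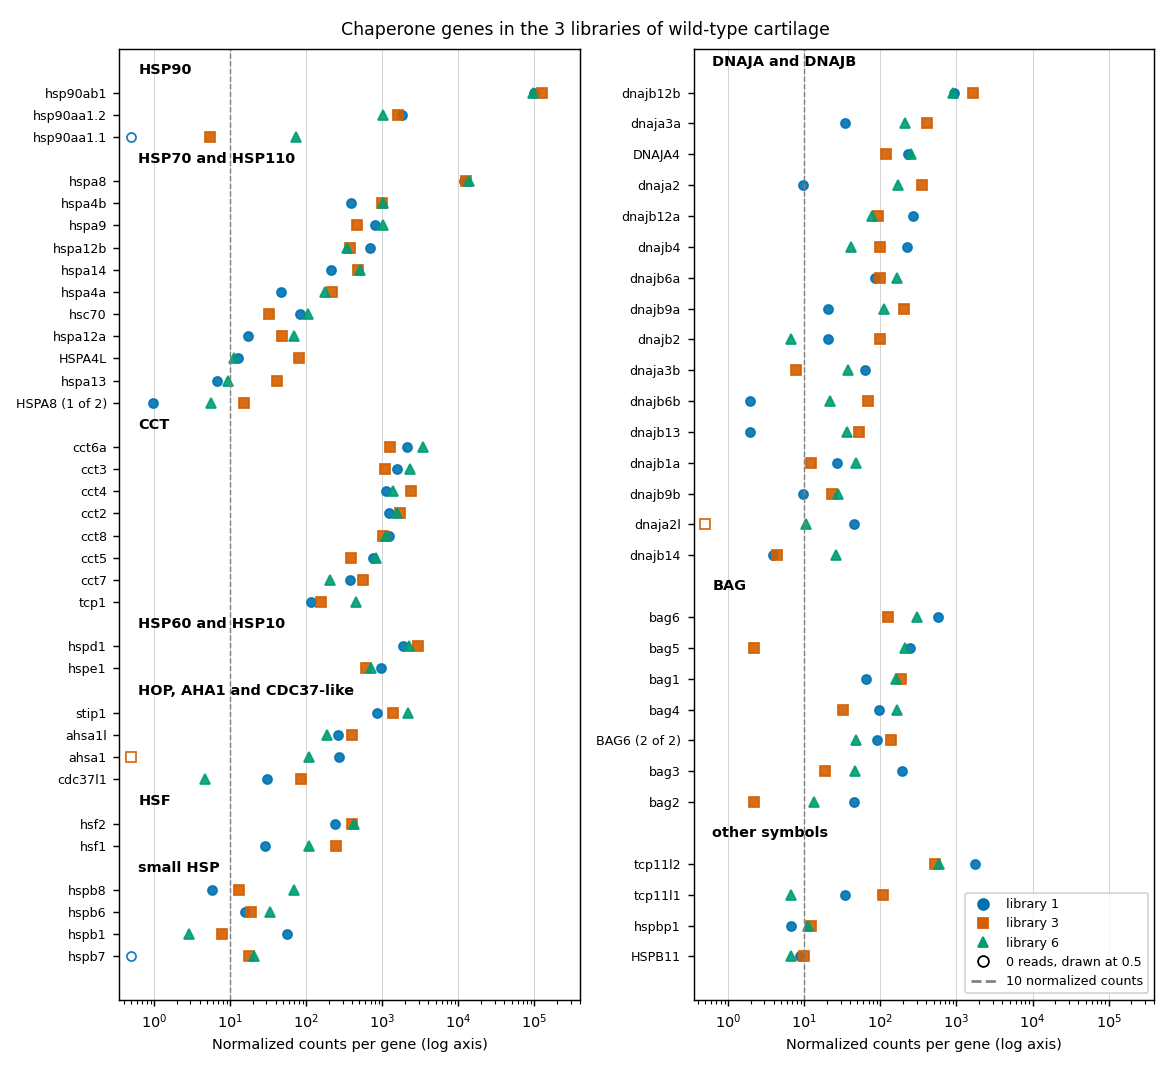
Normalized counts (x axis, log scale) of all 61 members in libraries 1, 3 and 6, grouped by family, with genes at 0 reads drawn as open symbols at 0.5 and the minimum of 10 as a dashed line. The 3 values of hsp90ab1 and hspa8 lie close together, while those of many J-domain, BAG and small heat shock genes, which have fewer reads, are spread widely. Among all genes, 73.4% of those with a mean of at least 10 had a highest library of at least 2 times the lowest. With a mean of at least 1000 it was 33.9%.

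HSP90 reads came almost entirely from hsp90ab1, the constitutive cytosolic form. It had 97402, 125851 and 95292 normalized counts in libraries 1, 3 and 6, a mean of 106182 ± 17066. By mean reads it stood 7th among the 14417 genes, and it was 9th, 8th and 12th in libraries 1, 3 and 6. As a share of counts outside AC024175.4 it amounted to 0.961, 1.16 and 0.815% in these libraries. The 95% confidence intervals by the Wilson method ran from 0.955 to 0.967%, from 1.15 to 1.17% and from 0.810 to 0.820%. The libraries therefore differed in this share by more than counting error. In TMM-normalized counts, a different measure, the highest library was 1.32 times the lowest. Library 3 was highest under every scaling tried, while total-count and upper-quartile scaling put library 1 and not library 6 lowest. As a share of all counts, however, libraries 3 and 6 were close, at 0.537 and 0.532%. Their intervals, from 0.534 to 0.540% and from 0.529 to 0.535%, overlapped, and library 1 was at 0.394%.

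The remaining HSP90 genes are the alpha forms, which lie next to each other in RefSeq (zebrafish assembly GRCz12tu). The gene hsp90aa1.2 had 1835, 1616 and 1006 normalized counts in libraries 1, 3 and 6 (mean 1485 ± 430), with library 6 lowest. The gene hsp90aa1.1 is needed in zebrafish skeletal muscle for the folding of myosin. It had 0 reads in library 1, 5 in library 3 and 78 in library 6, so its 73.9 normalized counts in library 6 were at least 25.5-fold above the limit that 0 reads allow in library 1. Near-identical sequence between the alpha genes could have split reads between them, and this was not tested. Library 6 also had the highest sum of muscle genes, 24100 normalized counts against 12880 and 5972 in libraries 1 and 3, and 16 of the 21 muscle genes found were highest there, none being at 0 in any library. The muscle sum of library 1 exceeded that of library 3, although hsp90aa1.1 had no reads in library 1. The nerve sum, with 7291, 12557 and 18862 in libraries 1, 3 and 6, had the same order of libraries as hsp90aa1.1. So did the chondrocyte sum. The part of muscle or other RNA in the level of hsp90aa1.1 was not tested. The reads of hsp90ab1 were 53.1, 77.6 and 88.3 times those of the summed alpha genes in libraries 1, 3 and 6, a log2 ratio of 6.16 ± 0.38. Since lengths cancel when this ratio is followed from library to library, the beta form outweighed the alpha forms more in libraries 3 and 6 than in library 1, by up to 1.66 times.

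Of the members whose products act in the HSP90 cycle, stip1, ahsa1, ahsa1l and cdc37l1 all had a wider ratio between libraries than hsp90ab1. The gene stip1, which encodes the HSP70-HSP90 bridging protein HOP, had 839, 1363 and 2164 normalized counts in libraries 1, 3 and 6 (mean 1455 ± 668). It was 2.58 times higher in library 6 than in library 1, and hsp90ab1 was 116 times stip1 in reads in library 1 but 44.0 times in library 6. Activators of the HSP90 ATPase are encoded by ahsa1 and ahsa1l, named ahsa1a and ahsa1b in RefSeq. For ahsa1 the normalized counts were 269, 0 and 110 in libraries 1, 3 and 6, at least 81.5-fold higher in library 1 than the 3.30 that 0 reads allow in library 3. Those of ahsa1l were 262, 400 and 187 in the same order, so that library 3 was the lowest for ahsa1 and the highest for ahsa1l. The CDC37-like gene cdc37l1 had 30.9, 84.8 and 4.73 normalized counts in libraries 1, 3 and 6, the last from 5 reads.

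Of 18 further HSP90 partners that were found in the table, 16 passed the minimum, against 67.8% of all genes. Of these 16, 11 had a highest library of at least 2 times the lowest, beside 64.5% of all genes past the minimum. The most read was fkbp5, an immunophilin of steroid receptor complexes, with 2958, 3637 and 3181 normalized counts in libraries 1, 3 and 6, or 3259 ± 346. Next came ptges3b, a gene for the p23 cochaperone, with 753 ± 194. The widest ratios were those of nudc, with 21.2, 50.7 and 158 normalized counts, and pih1d1, with 137, 33.0 and 56.8. The muscle myosin chaperone gene unc45b had 21.2, 56.2 and 79.5, and thus was highest in library 6 and lowest in library 1. So were hsp90aa1.1, stip1 and nudc, and this order was therefore not particular to unc45b. Of the 18 partners, 8 were highest in library 6, against 4 in library 1 and 6 in library 3. The share of all genes highest in each library was not worked out, so these counts have no background beside them.

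The HSP70 family was led by hspa8, the constitutive cytosolic HSP70. It had 12004, 12589 and 13883 normalized counts in libraries 1, 3 and 6, a mean of 12825 ± 962, and stood 122nd by mean reads. The highest library was 1.16 times the lowest. Of the 1397 genes whose mean reached 1000 normalized counts, only 62 genes had a smaller SD of the log2 value between libraries, against 243 for hsp90ab1. Its share of counts outside AC024175.4 was 0.118, 0.116 and 0.119% in libraries 1, 3 and 6. The Wilson intervals, from 0.116 to 0.121%, from 0.114 to 0.118% and from 0.117 to 0.121%, overlapped. As a share of all counts it was 0.0486, 0.0537 and 0.0775%, with intervals that did not overlap (0.0477 to 0.0494%, 0.0527 to 0.0547% and 0.0763 to 0.0788%). A second row named HSPA8 (1 of 2) had 1, 14 and 6 reads. The gene hsc70 had 83.0, 31.9 and 105 normalized counts in libraries 1, 3 and 6, so it was lowest in library 3. Reads of hspa8 were 145, 394 and 132 times those of hsc70 in that order.

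Of the HSP110-type genes, whose products exchange nucleotide on HSP70, both hspa4 genes were low in library 1. The gene hspa4b had 384, 1005 and 1022 normalized counts in libraries 1, 3 and 6, and hspa4a had 46.3, 219 and 178. For both, library 1 was lower than both other libraries by at least 2 times. HSPA4L had 12.5, 81.5 and 11.4, with library 3 apart from the others. The gene hspa14, whose human product works at the ribosome, had 213, 476 and 508 and also was lowest in library 1. Genes of the divergent HSPA12 branch went opposite ways, since hspa12a had 17.4, 47.4 and 68.2 and hspa12b had 697, 379 and 347. The latter is known from blood vessel lining in zebrafish, which the blood list was not chosen to mark. Blood genes, of which epb41b was at 0 reads in libraries 3 and 6, summed to 37463, 5222 and 37202 normalized counts in libraries 1, 3 and 6. As the blood list was not chosen to mark vessels, this sum does not bear on vessel RNA in hspa12b, whose part was not tested. The ER protein gene hspa13 had 7, 38 and 10 reads. Of the 9 genes of the family that passed the minimum, all but hspa8 differed by at least 2 times between the highest and the lowest library, beside 64.5% of all genes past it.

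Among the mitochondrial chaperones, the HSP70 of the mitochondrial matrix, hspa9, had 811, 469 and 1013 normalized counts in libraries 1, 3 and 6 (mean 764 ± 275). HSP60 (hspd1) had 1890, 2974 and 2250 (mean 2371 ± 552), and its lid HSP10 (hspe1) had 962, 617 and 702 (mean 760.3 ± 180.1). The genes hspd1 and hspe1 are direct neighbours in RefSeq and work as a pair, yet library 3 was the highest for hspd1 and the lowest for hspe1. The ratio of their reads was 1.96, 4.82 and 3.21 in libraries 1, 3 and 6. The direction for hspe1 held for the lowest library under every scaling, but total-count scaling put library 6 highest. Of 9 further mitochondrial chaperone and protease genes found, 8 passed the minimum, against 67.8% of all genes. They were led by the protease gene afg3l2 with 663, 183 and 468 normalized counts and clpxb with 188, 215 and 294. The gene dnajc11 had 46.3, 144 and 176, another value lowest in library 1.

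The CCT subunits, which stand side by side in each ring of the complex, did not move together between libraries. The largest differences were in tcp1, the alpha subunit, with 117, 158 and 449 normalized counts in libraries 1, 3 and 6. Of the 40 members past the minimum it was the only 1 that was at least 2 times higher in library 6 than in both other libraries, against 6.49% of all genes past it, although 8 members were so under total-count scaling. The subunits cct3, cct5 and cct6a were lowest in library 3 and highest in library 6, except that cct5 was highest in library 1 under total-count scaling without AC024175.4. For cct6a the values were 2079, 1245 and 3383, for cct3 they were 1559, 1097 and 2279, and for cct5 they were 757, 389 and 826. The subunits cct2, cct4 and cct7 were highest in library 3, except that cct2 was highest in library 6 under total-count scaling. The values of cct4 were 1121, 2392 and 1368 in libraries 1, 3 and 6, and those of cct7 were 381, 556 and 203. The most even subunits were cct8 with 1225, 1008 and 1106 (mean 1113 ± 109) and cct2 with 1240, 1729 and 1548 (mean 1506 ± 247). All the same, after TMM scaling the summed reads of the 8 subunits differed by 1.32 times, at 8479, 8574 and 11162 normalized counts (mean 9405 ± 1522). This ratio depends on the scaling. Total-count scaling shifts library 6, the highest, by 0.29 on the log2 scale and library 1, the lowest, by -0.17, which widens it. Total-count scaling without AC024175.4 put library 3 lowest.

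**Figure D2:**
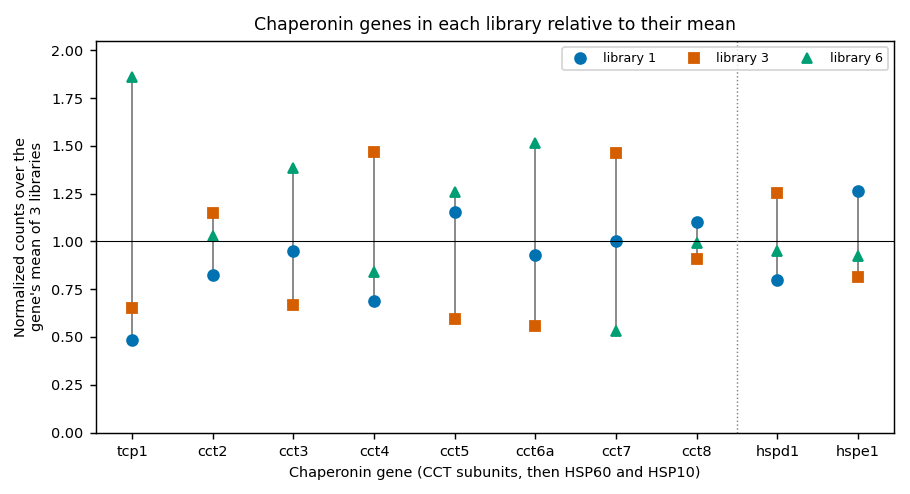
Normalized counts of each CCT subunit and of HSP60 (hspd1) and HSP10 (hspe1), divided by the gene's mean of libraries 1, 3 and 6 (y axis, linear from 0; x axis, gene). Library 6 is above the mean for tcp1, cct3, cct5 and cct6a and below it for cct4 and cct7, and the 3 values of cct8 lie closest together.

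Prefoldin hands unfolded actin and tubulin to CCT. All 9 genes found for prefoldin and phosducin-like partners passed the minimum, against 67.8% of all genes. Their sum was 3715, 3748 and 3803 normalized counts in libraries 1, 3 and 6, a ratio of 1.02 after TMM scaling. A highest library of at least 2 times the lowest was found for 3 of them and for 6 of the 8 CCT genes, beside 64.5% of all genes past the minimum, and the difference between these lists was not tested. The most read were pfdn4 with 776 ± 136 and uri1 with 747 ± 188, and the widest ratios were those of vbp1 with 206, 123 and 386 and of pfdn2 with 200, 615 and 338. The genes pfdn2 and vbp1, whose products sit in the same complex, thus went opposite ways in library 3.

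J-domain genes were the most numerous and were uneven. Their sum was 1975, 3286 and 2145 normalized counts in libraries 1, 3 and 6, and dnajb12b, which encodes a J-domain protein of the ER membrane, was the most read of them with 935, 1643 and 900. The next most read were dnaja3a, a mitochondrial form, with 34.7, 409 and 210, DNAJA4 with 228, 119 and 251, dnaja2 with 9.65, 356 and 172, and dnajb12a with 265, 92.5 and 77.6. The values of dnaja3a and dnaja2 were lowest in library 1 by a wide margin, and for dnaja2 the highest library was 36.9 times the lowest. The genes dnajb9a, of the ER lumen, with 20.3, 202 and 112, and dnajb6b, with 1.93, 69.4 and 21.8, had the same order. So did dnajb13, known from axonemes in mammals, with 2, 47 and 39 reads. In contrast, dnajb4 was highest in library 1, with 224, 99.1 and 40.7, and dnaja3b had 62.7, 7.71 and 37.9. The gene dnajb2 had 20.3, 98.0 and 6.63. The related dnajb6a had 85.9, 99.1 and 166 and dnajb9b had 9.65, 23.1 and 27.5. Both dnajb14, with 4, 4 and 28 reads, and dnaja2l, with 46, 0 and 11 reads, were near the limit of detection in at least 1 library. The classical heat-inducible form dnajb1a had 28, 11 and 50 reads. Outside the DNAJA and DNAJB groups, 12 of 14 further HSP70 partner genes found passed the minimum, against 67.8% of all genes. They were led by dnajc7 with 908 ± 261 and st13 with 618 ± 244. The widest ratios among them were those of dnajc6, with 13.5, 46.3 and 146, and hsph1, another HSP110-type gene, with 13.5, 70.5 and 35.0 and the lowest value in library 1.

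BAG proteins release substrates from HSP70, and 5 of their 7 genes were lowest in library 3. Their sum was 1306, 508 and 945 normalized counts in libraries 1, 3 and 6. The gene bag6, which encodes a protein that escorts misplaced membrane proteins, had 572, 126 and 304. The gene bag5 had 256, 2 and 220 reads in libraries 1, 3 and 6, a ratio of 112 after normalization. The gene bag3, heat-inducible in mammals and a partner of small heat shock proteins, had 193, 18.7 and 46.4 normalized counts, bag4 had 94.6, 31.9 and 166, and bag2 had 44.4, 2.20 and 13.3. In each of these 5 genes library 3 was lowest. The share of all genes lowest in library 3 was not worked out, so this count has no background beside it. The exceptions were bag1, with 64.7, 187 and 159, and the second bag6 row, BAG6 (2 of 2), with 89.8, 140 and 48.3, both highest in library 3, except that bag1 was highest in library 6 under total-count scaling. Library 3 had the fewest counts outside AC024175.4, with 9855389 against 10502351 and 12355434 in libraries 1 and 6, and the part of depth in these values was not tested. With bag5 and ahsa1, 2 of 61 genes had at most 3 reads in 1 library and at least 100 in another, against 4.58% of all genes.

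Small heat shock proteins keep damaged proteins from clumping and are most abundant in muscle, heart and lens. Their genes had few reads here, with sums of 77.2, 57.3 and 126 normalized counts in libraries 1, 3 and 6. Only hspb6 passed the minimum, with 16, 17 and 35 reads. The gene hspb8 had 6, 12 and 73 reads and hspb7, known from heart and muscle, had 0, 16 and 22. Like the muscle sum, hspb6, hspb7 and hspb8 had their highest value in library 6, but library 1 and not library 3 was the lowest for each. The nerve and chondrocyte sums were also highest in library 6 and lowest in library 1. The part of muscle or other RNA was not tested. The gene hspb1 (HSP27) went the other way, with 58, 7 and 3 reads. The epidermis sum followed the same split between library 1 and the others, with 36995, 1681 and 2433 normalized counts in libraries 1, 3 and 6. All 8 epidermis genes found were highest in library 1, and cldne and zgc:165571 were at 0 in at least 1 of the other libraries. The part of epidermal or perichondral RNA in hspb1 was not tested. The lens and muscle gene cryabb, looked at beside them, had 67.6, 57.3 and 0.947 normalized counts.

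Both heat shock factors had reads in every library. The gene hsf1, the main switch of the heat shock response, had 29.0, 248 and 108 normalized counts in libraries 1, 3 and 6, so that it was at least 2 times lower in library 1 than in both others, and at least 2 times higher in library 3, a difference to library 6 that fell short of 2 times under total-count scaling. The gene hsf2, for a factor active in development in mammals, had 236, 399 and 429 (mean 354 ± 104). Of 15 further stress genes found, 12 passed the minimum, against 67.8% of all genes. The most read were serpinh1b, the collagen chaperone HSP47, with 2983, 2080 and 2597 normalized counts in libraries 1, 3 and 6, and atf4b2 with 1741, 911 and 1210. The widest ratios were those of the immediate early gene fos, with 1182, 221 and 199, and of the autophagy receptor gene sqstm1, with 33.8, 102 and 39.8. The heat- and oxidant-inducible gene hmox1a had 1 read, in library 1. The genes hsbp1a and hsbp1b, for proteins that bind heat shock factor in mammals, had 164 ± 38.6 and 198 ± 69.0.

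Zebrafish carry many duplicated genes, and 11 pairs of related members were compared by the ratio of their reads within each library. This ratio needs no correction for length when it is followed across libraries. In 7 pairs the same gene had more reads in every library. In 4 pairs the order turned (ahsa1, dnaja2, dnaja3 and bag6). For ahsa1 the turn rested on library 1, with 279 reads against 271 for ahsa1l. For bag6 it rested on library 3, with 114 reads against 127 for BAG6 (2 of 2). Both were near ties, and counting error was not worked out for them. The gene dnaja2 had 17.9, 100 and 94.3% of the reads of its pair in libraries 1, 3 and 6, and dnaja3a had 35.6, 98.1 and 84.7%. The gene ahsa1 had 50.7, 0 and 36.9% of its pair, and bag6 had 86.4, 47.3 and 86.3%. Adding both genes of a pair did not even out the dnaja2 pair, whose sum was 54.1, 356 and 183 normalized counts. For ahsa1 and ahsa1l it did to a degree, since the sum was 531, 400 and 297, a ratio of 1.79, whereas ahsa1 alone ran from 0 to 269. The steadiest pair was hspa4a with hspa4b, where the log2 ratio was -3.02, -2.19 and -2.51 in libraries 1, 3 and 6. How far the counting split reads between copies was not tested.

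**Figure D3:**
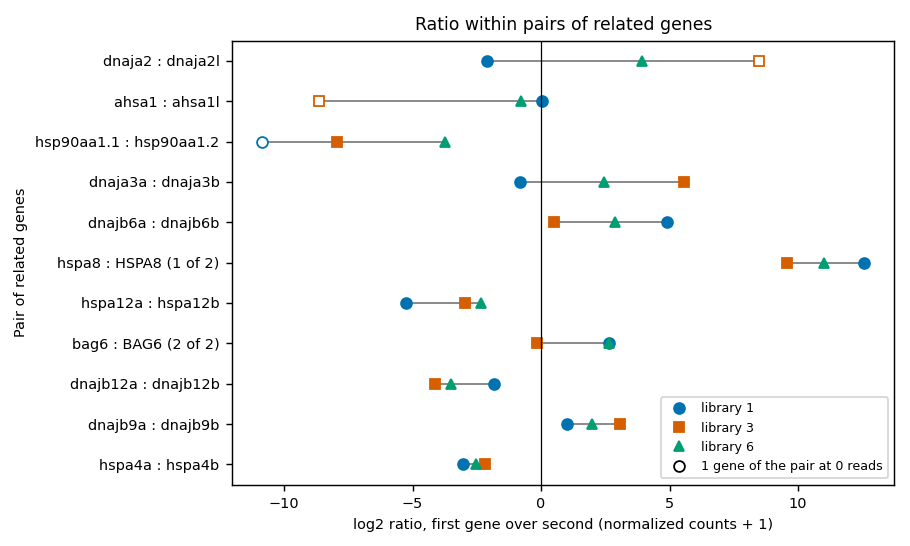
Log2 ratio of normalized counts plus 1 (x axis) of the first gene to the second in 11 pairs of related genes (y axis), in libraries 1, 3 and 6, with open symbols where a gene of the pair had 0 reads, so that the position depends on the added 1. The dnaja2 and dnaja3 pairs cross 0 between library 1 and the other libraries, while the hspa4 pair stays between -3.02 and -2.19.

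The spread between libraries was set against that of all genes. Of the 40 members past the minimum, which include tcp11l2, 30 (75.0%) had a highest library of at least 2 times the lowest, against 64.5% of all genes past it. The median SD of the log2 value (with 1 added) was 0.71 for these 40 and 0.69 for all. Without the demand that every library pass, 48 of 59 chaperone genes whose mean reached 10 normalized counts had this ratio against 73.4% of all such genes. Where the mean reached 100 it was 25 of 35 against 61.7%, and where it reached 1000 it was 4 of 11 against 33.9%. These 4 were cct3, cct4, cct6a and stip1. The 7 others were hsp90ab1, hsp90aa1.2, hspa8, hspd1, cct2, cct8 and dnajb12b. These shares, 81.4, 71.4 and 36.4%, and the 75.0% before them lay somewhat above those of all genes, and the difference was not tested. The range within the families ran from hspa8 at 1.16 and cct8 at 1.22 to dnaja2 at 36.9 and bag5 at 112.

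**Figure D4:**
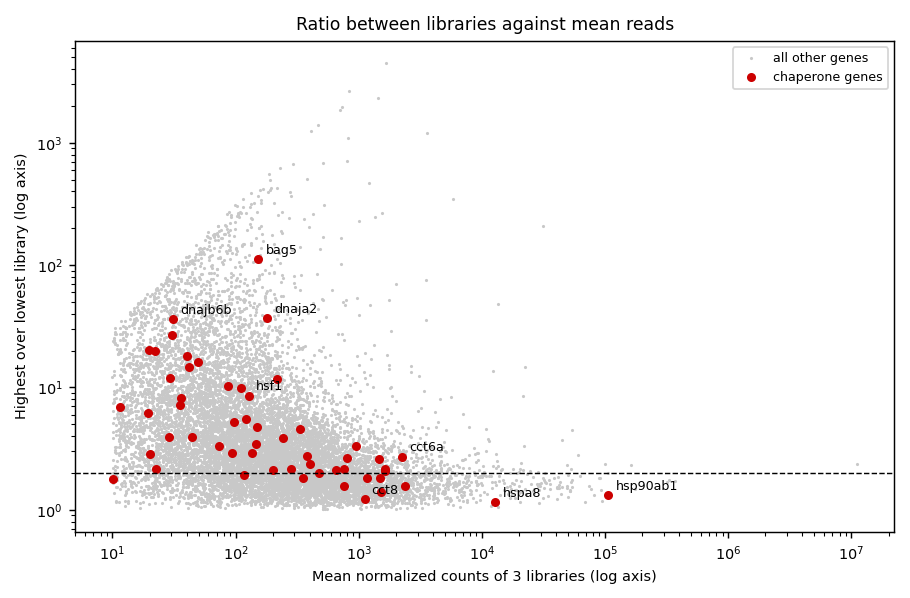
Highest over lowest library (y axis, log scale) against mean normalized counts (x axis, log scale) for genes whose mean reached 10 and that had reads in every library, with members in red and a dashed line at a ratio of 2. The red points follow the cloud of all genes, from bag5 at a ratio of 112 to hspa8 at 1.16 and hsp90ab1 at 1.32.

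Single libraries also stood apart for some members. Library 1 was at least 2 times lower than both others for 8 of the 40 genes past the minimum, against 12.1% of all genes. These were bag1, dnaja3a, dnajb9a, hsf1, hspa12a, hspa14, hspa4a and hspa4b. Library 1 was at least 2 times higher for 4 (bag3, dnajb12a, dnajb4 and tcp11l2), against 11.5%. Library 3 was lower for 5 (bag3, bag4, bag6, dnajb1a and hsc70), against 9.56%, and higher for hsf1 and HSPA4L, against 7.64%. Library 6 was lower for dnajb4 alone, against 8.32%. Among the remaining names, tcp11l2, related to a testis protein and not to the chaperonin TCP1, had 1738, 527 and 582 normalized counts in libraries 1, 3 and 6, and tcp11l1 had 34.7, 107 and 6.63. The nucleotide exchange factor gene hspbp1 had 7, 11 and 12 reads, and HSPB11, whose human product belongs to a cilium transport complex, had 9, 9 and 7.

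The core proteasome degrades what chaperones cannot refold. All 15 of its genes found passed the minimum, against 67.8% of all genes. A ratio of at least 2 was found for 6 of them, beside 64.5% of all genes past the minimum. The 15 genes summed to 10090.5, 8188 and 6403 normalized counts in libraries 1, 3 and 6. The most read were psmb6 with 1877 ± 419 and psma4 with 1151, 527 and 662, and the widest ratios were those of psma2 with 1254, 194 and 506 and psmb1 with 669.9, 153 and 202. The proteasome sum was highest in library 1 and the CCT sum in library 6, an order of libraries that was not tested.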

How the data were processed

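The authors captured cartilage by laser, amplified the RNA for 1 round, sequenced it and deposited whole-number counts of reads per gene symbol, without normalization. The submitters' processing notes name Trimmomatic 0.36, edgeR and the build Zv9; the aligner and counting tool are not given in the sources used here. All 3 columns were used. Chaperone genes and gene lists were chosen with earlier results of these data known. Genes of other lists were matched by name, then by a RefSeq synonym (GRCz12tu) with exactly 1 row in the table; of the 61 members, 52 are a RefSeq symbol, 4 a synonym and 5 matched neither. Builds differ, so no coordinates are given.

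Counts were divided by library size and TMM factor (0.883, 0.930 and 1.22 for libraries 1, 3 and 6) and multiplied by the mean effective library size, in edgeR 4.0.16 under R 4.3.3. The minimum was 10 normalized counts in every library. The procedure was tested on simulated data. With 1 condition, no test was made. No library looked like a copy of another (chi-square per degree of freedom 166 to 416). The alternatives were DESeq2 1.42.0 size factors, total-count scaling with and without AC024175.4, upper-quartile scaling, TMM restricted to genes at 10 or more counts, other minimums and pseudocounts, and leaving out each library. Minimums of 100 and 1000 in the mean, and the rule of at most 3 and at least 100 reads, were added after seeing the data. Neither transcript lengths nor sequences were used here, so the planned values per coding length and the search for heat shock elements were not run. The planned ratio to inducible hsp70 was not run because no hsp70 gene was among the members. Other calculations used Python 3.11.15, numpy 2.4.6, scipy 1.17.1 and pandas 2.3.3.

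Genes named are the members whose mean reached 10 normalized counts in the families other than DNAJ and BAG. Of those families, the 5 with most reads and any with a ratio of at least 4 are named, and of the other lists the 2 with most reads and the 2 widest ratios (markers, the first only). Further members, and unc45b, cryabb, hmox1a, hsbp1a, hsbp1b, sp7, runx2b, dlx5a, epb41b, cldne and zgc:165571, were named after their values were seen.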

Additional observations from a re-analysis of the deposited data

How the results depend on the processing

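No paired analysis was possible because the series holds a single condition. Against TMM, total-count scaling shifted every gene by -0.17, -0.10 and 0.29 on the log2 scale in libraries 1, 3 and 6. It turned the highest or lowest library of 12 of 59 members, and of 4 of 10 family sums, and the numbers of members at least 2 times higher in libraries 3 and 6 became 1 and 8, and at least 2 times lower in library 6 became 0. Total-count scaling without AC024175.4 gave 4 members at least 2 times higher in library 3 and 3 at least 2 times lower in library 6. The number of members with a ratio of at least 2 was 17 where every library had to reach 50 normalized counts, 48 with a mean of at least 10, 4 with a mean of at least 1000 and 49 with no filter. The number of genes kept changed with the filter, and the share with this ratio changed too, from 30 of 40 to 17 of 27 and 4 of 11 under the stricter minimums. The median SD of log2 was 0.46 with a mean of at least 1000. None of the 295 member levels and 50 family sums under other scalings moved by more than 1 SD of the 3 libraries. These levels are means of the 3 libraries, and every scaling kept its factors centred near 1. The means could therefore hardly move, and this result does not show that the values of single libraries were stable. Leaving out 1 library lowered the mean of 26 of 59 members by over 1.5 times. Of these, 10 were lowered without library 1, 11 without library 3 and 5 without library 6. Their values are therefore given for each library. With 3 libraries, leaving out 1 cannot raise a mean by more than 1.5 times, so a single low library was not caught. For bag5 the mean rose from 153 to 228 without library 3 and was not counted. The other members are therefore not shown to be steady. Depth limits the members with few reads, such as HSPA8 (1 of 2) with 1 read in library 1. The per-length evenness of the CCT subunits and the ratio to inducible hsp70 were not run.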
